A study of Mus musculus with 6 samples.

Results

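The matrix proteases and their inhibitors were followed in mouse brown adipocytes that carried both PGC-1 coactivators, lacked PGC-1α, or lacked PGC-1α and had PGC-1β lowered as well. The members were the genes whose symbol on the array platform starts with Mmp and a digit, Adam and a digit, Adamts, or Timp and a digit, each represented by its brightest probe set. The choice used names and brightness and no difference between groups. It gave 70 genes of 18193 named on the array, read by 124 probe sets, and 48 of the 70 were bright enough to be tested, among 13658 genes tested in all. The 48 comprised 4 of 4 Timp, 11 of 18 Mmp, 11 of 15 Adamts, 5 of 5 Adamtsl and 17 of 28 Adam genes.

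Immortalised brown preadipocytes carrying SV40 large T antigen were differentiated for 7 days and their total RNA was hybridised to 6 one-colour arrays. Wild-type cells (WT, passage 4, from a mouse of mixed background per the label of replicate 2) carried no siRNA named in the titles. Knockout-control cells were PGC-1alpha -/- and expressed a control siRNA. Knockdown cells were PGC-1alpha -/- and expressed an siRNA against PGC-1beta. Each group had n = 2 arrays, called biological replicates in the series design. All 3 groups share the large T antigen and the 7 days of differentiation, and whether each genotype came from 1 clone or several is not given in the sources used here. A comparison with wild type therefore cannot tell the loss of PGC-1α apart from cell line, siRNA vector or sex. The Y-linked gene Eif2s3y stood at 872 and 961 on the wild-type arrays against 6.25 and 5.13 on the knockout arrays with a value.

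The enzymes of these families are zinc proteases that cut proteins outside or at the surface of the cell. Matrix metalloproteinases (MMPs) are made as inactive precursors and degrade collagens, elastin and other matrix proteins. ADAMs are mostly membrane-bound, and those of them that are active proteases release growth factors, cytokines and receptors from the cell surface. ADAMTS proteases are secreted and cut proteoglycans such as aggrecan and versican or process procollagens, while the ADAMTS-like proteins (Adamtsl) lack the protease domain. Tissue inhibitors of metalloproteinases (TIMPs) bind the active site of these enzymes. In fat, these enzymes take part in the remodelling of the matrix around adipocytes as they form and enlarge.

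The promoters of Timp3 and Adamts1 are shown because these members had the largest log2 fold changes of the set between wild type and knockout-control (the first step) and between knockout-control and knockdown cells (the knockdown step), where they passed in all 18 processing alternatives tried. Both come from RefSeq (GRCm38.p6), run from 250 bases before to 50 bases after the gene start, and are written 5′ to 3′ on the gene's strand. Capitals mark matches to the GC box (GGGCGG) or the TATA box (TATAAA) on either strand. Timp3 lies at chr10:86300162-86300461 on the plus strand and Adamts1 at chr16:85803064-85803363 on the minus strand.
Timp3: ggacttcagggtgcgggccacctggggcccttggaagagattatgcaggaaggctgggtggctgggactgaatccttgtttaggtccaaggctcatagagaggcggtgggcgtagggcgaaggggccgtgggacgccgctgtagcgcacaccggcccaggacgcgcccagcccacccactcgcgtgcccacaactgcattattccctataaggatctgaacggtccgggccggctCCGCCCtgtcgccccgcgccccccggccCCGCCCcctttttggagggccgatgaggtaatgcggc
Adamts1: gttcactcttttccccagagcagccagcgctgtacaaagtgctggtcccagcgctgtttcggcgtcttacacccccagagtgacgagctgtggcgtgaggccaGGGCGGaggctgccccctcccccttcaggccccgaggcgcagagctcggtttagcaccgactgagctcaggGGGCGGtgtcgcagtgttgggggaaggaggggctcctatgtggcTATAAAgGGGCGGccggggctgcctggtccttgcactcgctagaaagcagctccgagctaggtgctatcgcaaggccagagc
The Timp3 window held 2 GC boxes and the Adamts1 window 3, at a GC content of 67.0% and 64.67%, against a median of 52.67% over all 32817 promoter windows of the table. The Adamts1 window also held a TATA box starting 32 bases before the gene start, with a GC box 1 base after its end. Of all windows, 35.6% held a GC box and 13.6% a TATA box. Neither window held the CCAAT box (CCAAT, in 37.4% of all windows), the cAMP response element (TGACGTCA, 1.79%), the AP-1 site (TGANTCA, 7.81%), the nuclear receptor half-site (AGGTCA, 16.3%) or the E-box (CACGTG, 7.15%). Among the 46 windows available for 41 members, 21 held a GC box and 13 a TATA box. A match describes the letters and not a bound factor.

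Intensities are given on the linear scale of the deposited table, array by array, and fold changes come from log2(intensity + 32). Levels are not compared between genes, because each probe set has its own response. The array medians lay between 220.9 and 242.7. Knockout-control array 1 and knockdown array 2 had the most empty cells (334 and 360, against 17 to 106 on the other arrays), and counts of calls are also given with both left out. Ppargc1b, which encodes PGC-1β, stood at 1862 and 2302 in knockout-control and at 534 and 224 in knockdown cells, a fall of 5.53-fold (log2 fold change -2.47 ± 0.32 SE, limma adjusted p = 0.022). Leaving out either knockout-control array ended that call (highest limma adjusted p = 0.1455), as did no filter and averaging over probe sets. The brightest probe set of Ppargc1a, which encodes PGC-1α, read 1338 and 1319 on the wild-type arrays against 767 and 830 on those of knockout-control (-0.71 ± 0.24, limma adjusted p = 0.125), and the position of its probes relative to the deletion is not given. The general adipocyte markers Adipoq, Fabp4, Pparg, Lpl and Cebpa were all above the filter, with summed intensities from 44810 to 50350 over the 6 arrays.

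**Figure D1:**
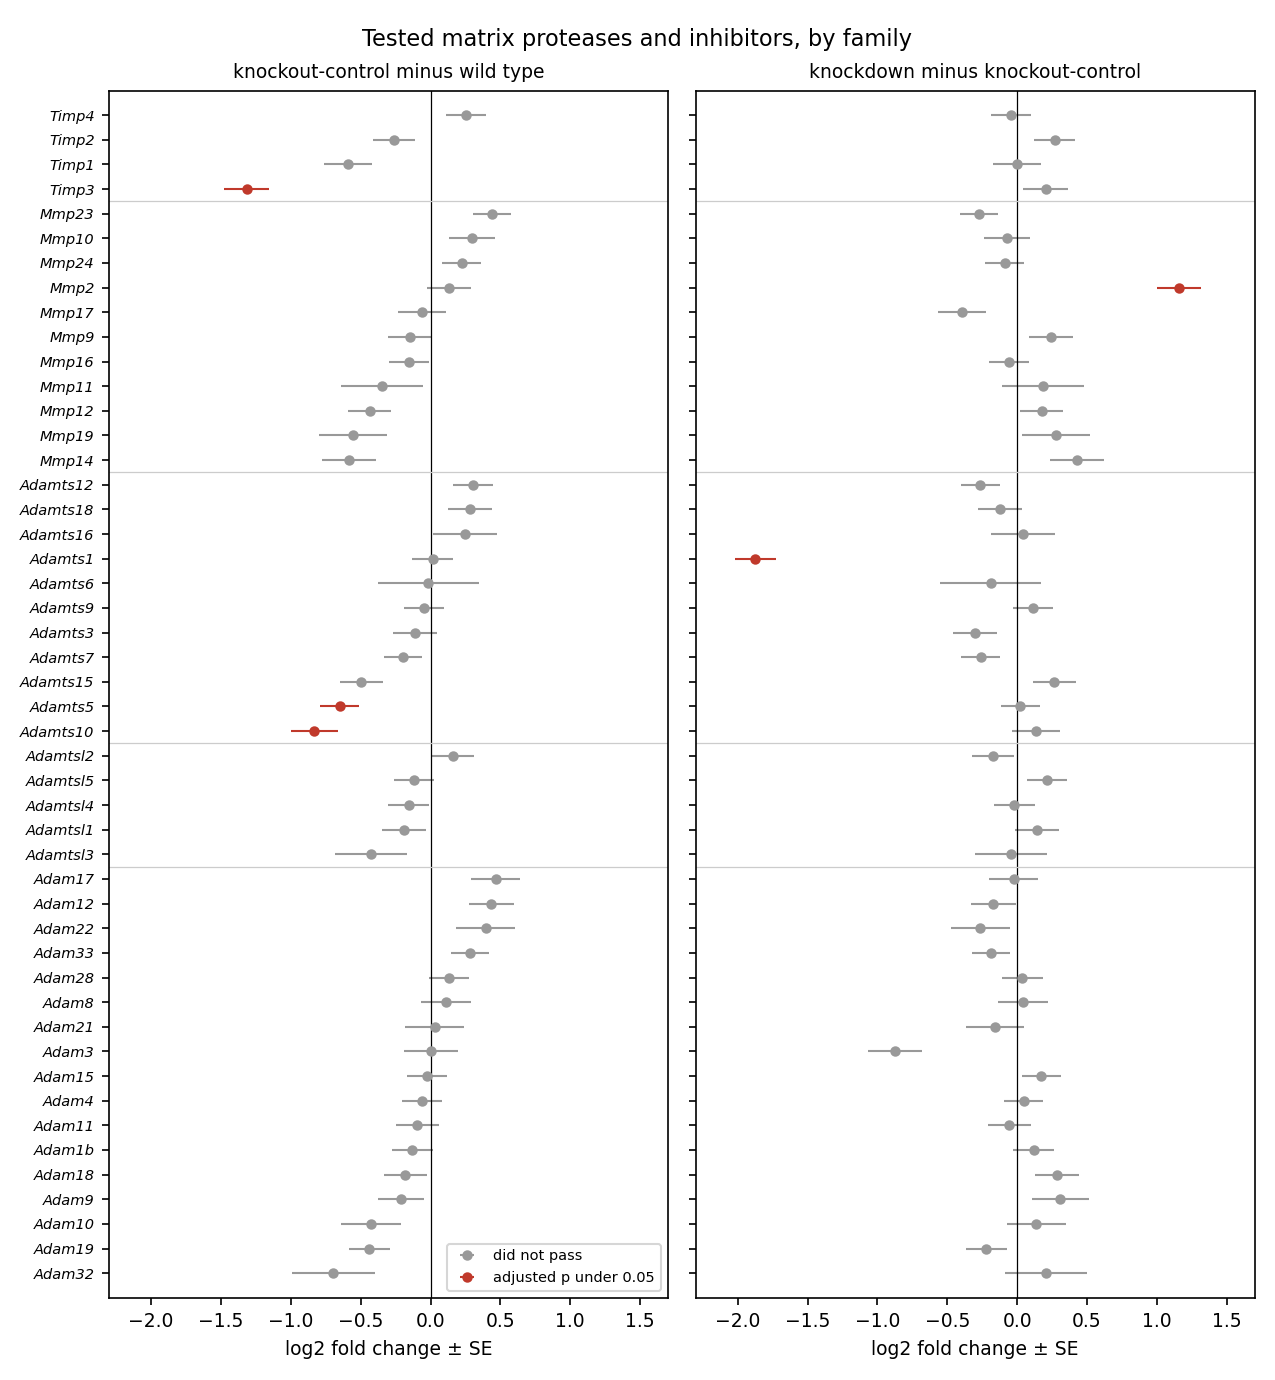
Log2 fold changes (x axis, points) with standard errors (bars) of the 48 tested members, ordered by family, between knockout-control and wild type (left) and between knockdown and knockout-control (right). Red points passed at an adjusted p under 0.05. Timp3, Adamts5 and Adamts10 passed on the left side in the first step, where Adam32 (-0.70) lies further left than Adamts5 (-0.65) without passing. Adamts1 and Mmp2 stand apart on opposite sides in the second.

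Between wild type and knockout-control, 3 of the 48 tested members fell, Timp3, Adamts10 and Adamts5, and 0 rose. A share of 6.25% is close to the 6.05% of all 13652 genes that passed in this comparison (limma, Benjamini-Hochberg), where 3.5% of all genes fell and 2.55% rose. Over the tested members the median log2 fold change was -0.10, against 0.00 over all genes. At an unadjusted p under 0.05 there were 12 members, against 21.1% of all genes, and the groups did not overlap for 30 of 48 members (62.5%), against 58.2% of all genes. The remaining 45 members had log2 fold changes from -0.70 (Adam32) to 0.47 (Adam17).

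Timp3, the inhibitor that binds to the matrix and also blocks ADAM17 and the aggrecanases, had intensities of 746 and 576 in wild type, 247 and 243 in knockout-control and 297 and 277 in knockdown cells. Both wild-type arrays lay above all 4 knockout arrays. Timp3 fell 2.49-fold between wild type and knockout-control (-1.31 ± 0.16 SE, limma adjusted p = 0.00285) and passed in all 18 alternative settings, with log2 fold changes from -1.49 to -1.14. Its 3 other probe sets moved the same way, at -1.74, -1.13 and -1.09, and none of the 4 overlapped between these groups. Between knockout-control and knockdown cells the difference of Timp3 was 0.20 ± 0.16 (limma adjusted p = 0.636, not past the threshold), although all 4 of its probe sets were higher in knockdown cells, by 0.20 to 0.58. Against wild type, Timp3 was 2.16-fold lower in knockdown cells (-1.11 ± 0.16, limma adjusted p = 0.00519), a call lost without wild-type array 1 (limma adjusted p = 0.0618). In the gene table of GRCm38.p6, Timp3 lies inside Syn3, Timp1 inside Syn1 and Timp4 inside Syn2. The host gene Syn3, which encodes a synapsin, read 1169 and 1186 on wild-type arrays and 1117 and 1118 on knockout-control arrays (-0.07 ± 0.18, limma adjusted p = 0.879).

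The other 3 inhibitors did not pass in any comparison. Timp1, a soluble inhibitor whose gene is X-linked, had intensities of 764 and 741 in wild type, 430 and 556 in knockout-control and 539 and 444 in knockdown cells. Its wild-type arrays lay above all knockout arrays, at -0.59 ± 0.17 between wild type and knockout-control (limma adjusted p = 0.0851). Timp1 passed in 4 of 18 alternatives of that comparison, among them quantile normalization. Timp2, which both inhibits MMP2 and helps MMP14 to activate it, stood at 716 and 628, 595 and 516, and 662 and 686 in wild type, knockout-control and knockdown cells (-0.26 ± 0.15 and 0.27 ± 0.15 in the 2 steps, limma adjusted p = 0.369 and 0.478). The 6 probe sets of Timp2 disagreed, with differences between wild type and knockout-control of -0.70, -0.61, -0.26, -0.05 and 0.01 above the filter and 0.99 in a probe set below it. Timp4 stood at 281 and 292 in wild type, 369 and 326 in knockout-control and 322 and 349 in knockdown cells (0.25 ± 0.14 and -0.05 ± 0.14, limma adjusted p = 0.364 and 0.92). Its host gene Syn2 rose 2.58-fold between wild type and knockout-control (limma adjusted p = 0.00132).

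**Figure D2:**
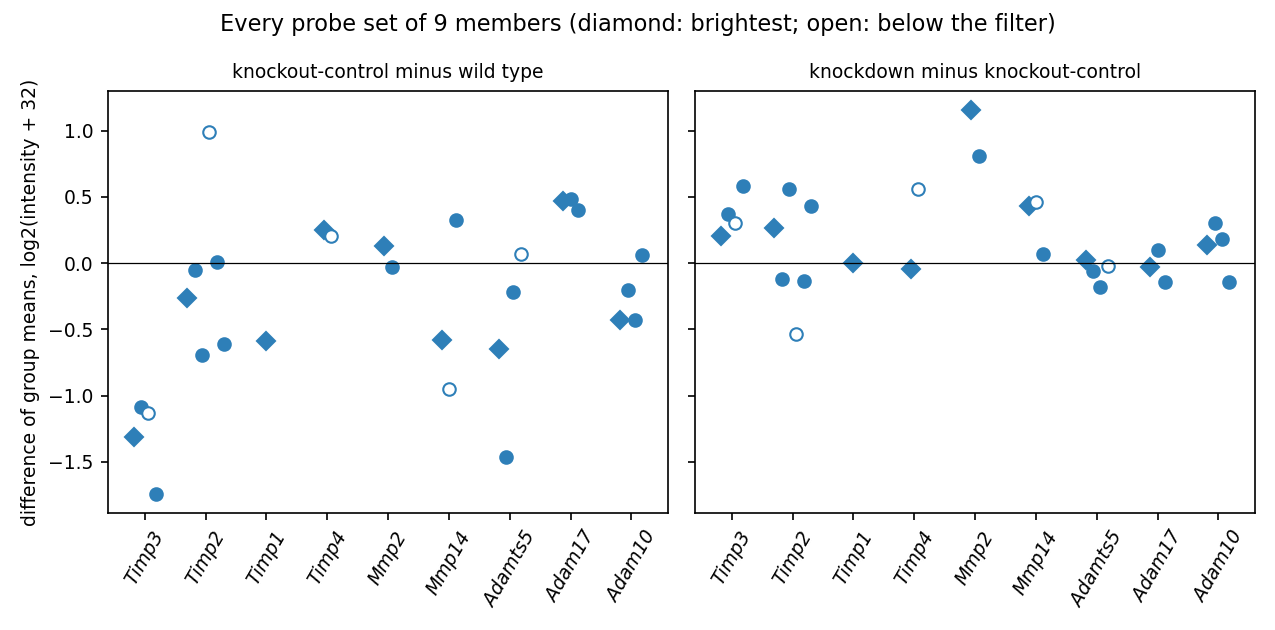
Difference of group means on the scale of log2(intensity + 32) (y axis) for every probe set of 9 members (x axis), between knockout-control and wild type (left) and between knockdown and knockout-control (right). Diamonds are the brightest probe set of a gene, circles the others, and open symbols lie below the filter. The 4 probe sets of Timp3 lie together at or below -1.09 on the left, those of Timp2 spread from -0.70 to 0.99, and both probe sets of Mmp2 lie at or above 0.81 on the right.

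Adamts5, an aggrecanase, stood at 659 and 599 in wild type, 375 and 404 in knockout-control and 396 and 396 in knockdown cells. The 4 knockout arrays lay within 375 to 404, below both wild-type arrays. Adamts5 fell 1.57-fold between wild type and knockout-control (-0.65 ± 0.14, limma adjusted p = 0.0326) and stood at 0.02 ± 0.14 in the knockdown step (limma adjusted p = 0.962). The 3 other probe sets of Adamts5 disagreed in size. The next in brightness read 442 and 415 in wild type and 384 and 345 in knockout-control, a difference of -0.22, another read 585 and 475 against 127 and 225 (-1.47), and the dimmest, below the filter, was at 0.07. Adamts10, a secreted protease linked to fibrillin microfibrils, stood at 297 and 353 in wild type, 154 and 183 in knockout-control and 166 and 211 in knockdown cells. It fell 1.78-fold in the first step (-0.83 ± 0.17, limma adjusted p = 0.0269), and its knockout-control intensities were close to the filter of 163.6. The calls of Adamts5 and Adamts10 were lost without any 1 of the 4 arrays of this comparison (highest limma adjusted p = 0.318 and 0.257), with no filter and when a gene's probe sets were averaged. The count of members called was 1, Timp3, without any 1 of those 4 arrays, 8 without either knockdown array, and 6 without knockout-control array 1 and knockdown array 2, where Adam12, Adam17 and Adamts15 were gained. It was 8 after quantile normalization.

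Some markers of smooth muscle cells and pericytes fell in this comparison. Of 8 on the array 5 were tested, 3 fell (Acta2, Tagln and Cspg4) and 0 rose. Myh11 stood higher without passing, at 355 and 364 in wild type and 438 and 433 in knockout-control. The summed intensity of the 8 was 5527 to 5982 in wild type, 3849 to 3983 in knockout-control and 3401 to 3527 in knockdown cells. Acta2 made up most of the wild-type sum, at 3392 and 2998. Of 6 tested preadipocyte and fibroblast markers 1 fell, Col1a1, and 0 rose, with sums of 4110 to 4968 in wild type, 3814 to 4014 in knockout-control and 4539 to 5437 in knockdown cells. Of 6 tested brown adipocyte markers 1 rose, Elovl3 (7.12-fold, limma adjusted p = 0.000349), and 0 fell, with sums of 21390 to 21720 in wild type and 19490 to 19590 in knockout-control. None of these markers stood at 0, Cnn1, Rgs5, Lmod1 and Cd34 lay below the filter, and the part of these markers in the fall of Timp3, Adamts5 and Adamts10 was not tested. Fewer cells of a type and less RNA per cell cannot be told apart in these samples. None of 5 macrophage, 2 endothelial and 3 skeletal muscle markers tested passed in any comparison in limma.

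**Figure D3:**
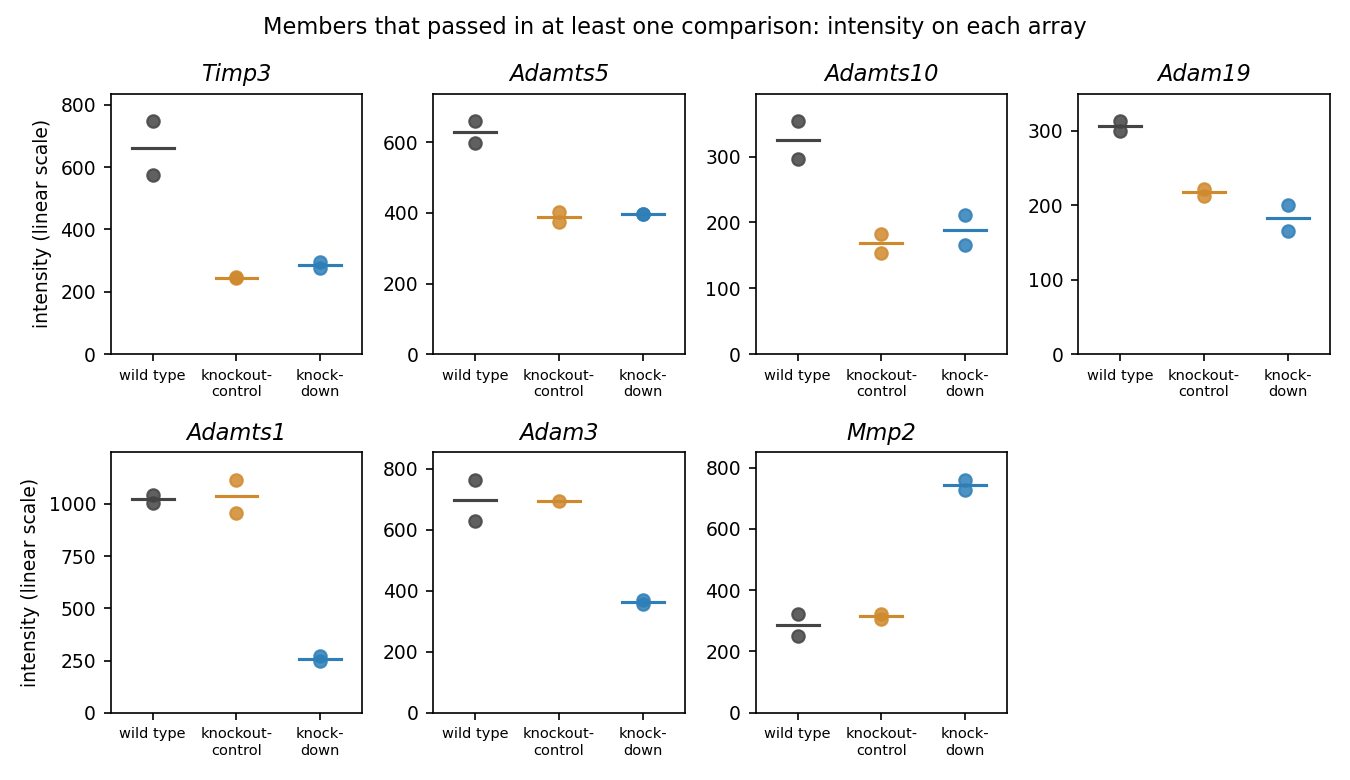
Intensity on each array (y axis, linear, from 0) of the 7 members that passed in at least 1 comparison, by group (x axis). Points are arrays and lines are group means; Adam3 has 1 knockout-control array with a value. Timp3, Adamts5 and Adamts10 are higher on both wild-type arrays than on the 4 knockout arrays, Adamts1 is low in knockdown cells, and Mmp2 is high there, at 728 and 760.

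Between knockout-control and knockdown cells, which share the genotype, Adamts1 fell and Mmp2 rose, 2 of the 48 tested members (4.17%). Of all 13649 genes tested, 0.835% passed, 0.564% lower and 0.271% higher (limma, Benjamini-Hochberg). Because the families were chosen with earlier results of these data known, these shares are not a test of enrichment. The median log2 fold change was 0.01 over the tested members and -0.01 over all genes, and 45 of 48 members lay within 0.5 of 0, against 91.6% of all genes. At an unadjusted p under 0.05 there were 4 members, against 14.1% of all genes, and the groups did not overlap for 22 of 48 (45.8%), against 39.5% of all genes. The count was 1, Adamts1, when either knockout-control array was left out, or knockout-control array 1 together with knockdown array 2. A further siRNA or a rescue is not among the groups, so other effects of the siRNA cannot be told apart from the lowering of PGC-1β.

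Adamts1, a secreted protease that cuts versican and aggrecan, stood at 1002 and 1040 in wild type, 956 and 1114 in knockout-control and 270.0 and 247 in knockdown cells. The wild-type and knockout-control arrays overlapped, and both knockdown arrays lay far below the lowest of the other 4. From knockout-control to knockdown cells Adamts1 fell 3.67-fold (-1.88 ± 0.15 SE, limma adjusted p = 0.00182) and passed in all 18 alternatives, at -1.98 to -1.77. Between wild type and knockout-control it stood at 0.02 ± 0.15 (limma adjusted p = 0.971). Only 1 probe set reads Adamts1, so no second one could be set beside it. In the gene table Adamts1 and Adamts5 are next to each other on chromosome 16. Adamts5 was lower in both knockout groups than in wild type, and Adamts1 was lower in knockdown cells than in both other groups.

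Mmp2, the gelatinase that degrades type IV collagen and denatured collagen, stood at 323 and 252 in wild type, 323 and 308 in knockout-control and 728 and 760 in knockdown cells. Both knockdown arrays lay above all 4 other arrays. From knockout-control to knockdown cells Mmp2 rose 2.23-fold (1.16 ± 0.16, limma adjusted p = 0.0259) and stood 2.44-fold above wild type (1.29 ± 0.16, limma adjusted p = 0.00241). Its other probe set stood at 352 and 300 in wild type, 304 and 333 in knockout-control and 640.2 and 527 in knockdown cells. The knockdown step of that probe set was 0.81. It was brighter than the probe set used on both wild-type arrays and dimmer on both knockdown arrays. The knockdown values thus decided which probe set stood for Mmp2. In the knockdown step the call passed in 12 of 18 alternatives, with log2 fold changes from 0.98 to 1.23. It was lost when either knockout-control array was left out (highest limma adjusted p = 0.159), when knockout-control array 1 and knockdown array 2 were both left out, with no filter, when probe sets were averaged and in 1 further alternative. Mmp14, the membrane-anchored enzyme that activates the MMP2 precursor, stood at 729 and 643 in wild type and 388 and 512 in knockout-control. In knockdown cells it stood at 708 and 527. Mmp14 did not pass in either step (-0.58 ± 0.19 and 0.43 ± 0.19, limma adjusted p = 0.125 and 0.369). Its other probe sets disagreed between wild type and knockout-control, at 0.33 above the filter and -0.95 below it.

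Some markers of preadipocytes and brown adipocytes also differed in this step. Of 6 tested preadipocyte and fibroblast markers 1 rose, Dlk1 (3.53-fold, 1.82 ± 0.18, limma adjusted p = 0.00696), and 0 fell. Dlk1 passed in 13 of 18 alternatives, with log2 fold changes from 1.07 to 1.91. The median of the 6 was -0.05, with Pdgfra at 0.52 and Pdgfrb at -0.40, neither past the threshold. Of 6 brown adipocyte markers 4 fell, Ucp1, Cidea, Cox7a1 and Dio2. Cox8b and Elovl3 stood higher in knockdown cells, at 0.52 ± 0.24 and 0.17 ± 0.21, and did not pass. The summed intensity of all 6 was 19490 to 19590 in knockout-control and 7487 to 9980 in knockdown cells. Among general adipocyte markers 0 of 5 passed in this step (lowest limma adjusted p = 0.557). The part of these shifts in the values of Adamts1 and Mmp2 was not tested.

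**Figure D4:**
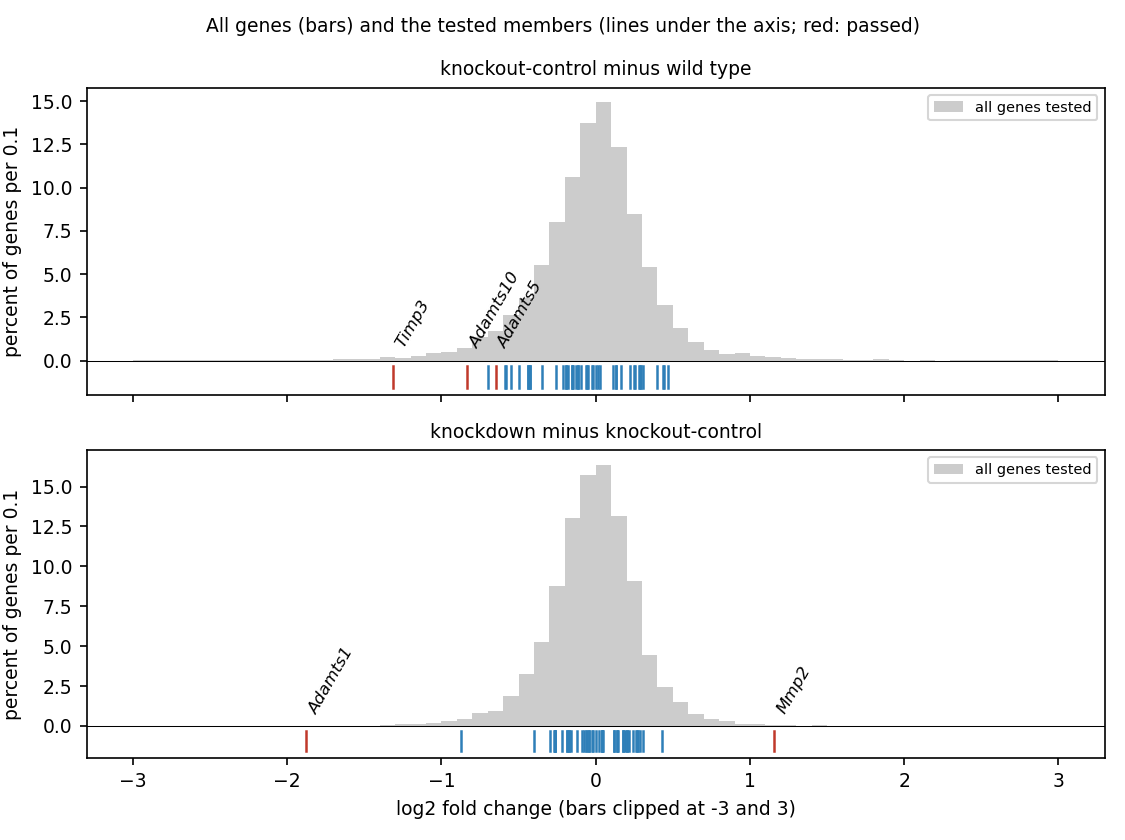
Share of all genes tested per 0.1 of log2 fold change (grey bars) and the 48 tested members (lines under the axis, red where they passed), for knockout-control minus wild type (top) and knockdown minus knockout-control (bottom). Most members lie within the body of all genes in both steps, with Timp3 at -1.31 in the first, and Adamts1 at -1.88 and Mmp2 at 1.16 in the second, outside it.

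Knockdown cells were also compared with wild type, a comparison that shares arrays with the other 2 steps. Of the 48 tested members 1 rose, Mmp2, and 6 fell, a share of 14.6%, against 10.0% of all 13644 genes tested (limma, Benjamini-Hochberg). The members that fell were Adamts1 (3.63-fold, limma adjusted p = 0.000313), Timp3, Adam3 (1.83-fold, 0.0164), Adamts10 (1.62-fold, 0.0376), Adam19 (1.58-fold, 0.0277) and Adamts5 (1.54-fold, 0.028). The calls of Adam19, Adamts10 and Adamts5 were lost with no filter, when probe sets were averaged and when only these 2 groups were fitted. That of Adam3 was lost with no filter. The median was -0.03 over members and over all genes. At an unadjusted p under 0.05 there were 12 members, against 25.5% of all genes, and 26 did not overlap (54.2%), against 55.6%. The count was 2, Adamts1 and Mmp2, without wild-type array 1, 3 without wild-type array 2, 4 without either knockout-control array, 10 without knockdown array 1, and 12 when knockout-control array 1 and knockdown array 2 were both left out, where Adam17, Adam22, Adamts6, Adamts7 and Timp1 were gained.

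Of the 17 tested ADAM genes none passed in either step in limma, and the 2 called against wild type were Adam19 and Adam3. Adam19, a membrane sheddase of neuregulins, stood at 312 and 299 in wild type, 212 and 222 in knockout-control and 199.7 and 166 in knockdown cells, 3 groups with no overlap. Its steps were -0.44 ± 0.15 and -0.22 ± 0.15 (limma adjusted p = 0.127 and 0.564), and a second probe set, below the filter, was at 0.03 between wild type and knockdown cells. Adam3, known from mouse sperm as a surface protein needed for fertilisation, stood at 629 and 763 in wild type, at 693 on the 1 knockout-control array with a value and at 371 and 358 in knockdown cells. Its fall from wild type to knockdown was -0.87 ± 0.16, and its knockdown step, fitted without the missing array, was -0.87 ± 0.19 and did not pass (limma adjusted p = 0.0962). Adam32, another member known from the testis, ranged from 355 to 733 within the knockdown group alone.

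Adam10, Adam17, Adam12, Adam9, Adam15 and Adam21 did not pass in any comparison. Adam10, which cuts Notch and other receptors, stood at 1353 and 1382 in wild type, 909 and 1121 in knockout-control and 1383 and 897 in knockdown cells (-0.43 ± 0.21 and 0.14 ± 0.21, limma adjusted p = 0.297 and 0.828). Adam17, which releases tumour necrosis factor and is blocked by TIMP3, stood at 1005 and 1123, 1319.9 and 1662, and 1608 and 1315 in the same order, with both wild-type arrays below the 4 others (0.47 ± 0.17, limma adjusted p = 0.169). All 3 probe sets of Adam17 were higher in knockout-control than in wild type, by 0.40 to 0.49. Adam12 is a member expressed in mesenchymal cells and known from adipocyte formation in mice. It stood at 1097 and 1057, 1309 and 1641, and 1387 and 1217 (0.43 ± 0.16, limma adjusted p = 0.168). Its other probe set differed by 0.77 between wild type and knockout-control. Adam9 stood at 2122 and 2385 in wild type, 1755 and 2146 in knockout-control and 2411 on the 1 knockdown array with a value. Adam15 stood between 1788 and 2219 on all arrays and Adam21 between 990 and 1540. A p that missed the threshold does not show that these members were equal between groups.

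Among the other metalloproteinases, Mmp12, the elastase best known from macrophages, stood at 1292 and 1554 in wild type, 1005 and 1075 in knockout-control and 1110 and 1247 in knockdown cells (-0.44 ± 0.16, limma adjusted p = 0.151, and 0.17 ± 0.16). The summed intensity of 8 macrophage markers was 3498 to 3642 in wild type, 3562 to 3790 in knockout-control and 3286 to 3511 in knockdown. It overlapped between wild type and each knockout group but not between the knockout groups. Csf1r made up the largest part of the sum, at 1604 to 2190 over the arrays. Below the filter, Cd68 was higher in knockdown (213 and 200) than in knockout-control (79.9 and 117). Mrc1, also below it, was lower (94.4 and 98.8, against 181 and 165). The part of these markers in the values of Mmp12 was not tested. Mmp24 and Mmp16, both membrane-anchored, lay between 1078 and 1276 and between 545 and 693 on the 6 arrays, and neither passed in limma. Mmp9, the other gelatinase, stood at 259 and 296, 226 and 271, and 276 and 323 (-0.15 ± 0.16 and 0.24 ± 0.16, limma adjusted p = 0.672 and 0.559). Apart from Mmp2, the 10 tested members of the family had log2 fold changes between -0.58 and 0.44 in the first step and between -0.40 and 0.43 in the second.

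Among the other ADAMTS members, Adamts15 stood at 663 and 700 in wild type, 503 and 447 in knockout-control and 524 and 633 in knockdown cells (-0.49 ± 0.15, limma adjusted p = 0.105, and 0.26 ± 0.15, 0.501). The 5 Adamtsl genes were all tested and none passed in limma in any comparison, with log2 fold changes between -0.42 and 0.16 in the first step and between -0.17 and 0.21 in the second. Adamtsl2, Adamtsl1 and Adamtsl4 stood at 460 to 602, 265 to 338 and 243 to 304 over the 6 arrays.

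The 22 members below the filter were not tested, and none of their intensities exceeded 243.4. They included 7 of the 9 Mmp genes of chromosome 9, among them the stromelysin Mmp3, the collagenase Mmp13, for which 4 of 6 cells held no number, and Mmp8. They also included 11 Adam genes, most of which are known from the male germ line, and Adamts4, the other aggrecanase, which stood between 55.5 and 224. Adamts19 and Adamts20 were dim as well.

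Genes that act with these families were read from 7 lists of 96 genes on the array, 72 of them tested. The lists were chosen with earlier results of these data known, so their shares of calls are not a test of enrichment. Between wild type and knockout-control 11 passed, 1 higher and 10 lower (15.3%, against 6.05% of all genes), at a median of -0.12. The count was 5 when either wild-type array or knockout-control array 1 was left out, and 6 when knockout-control array 2 was. Pcolce and Pcolce2 encode enhancers of procollagen processing. The former fell 2.48-fold (limma adjusted p = 0.00242) and the latter 2.54-fold (0.00284), making 2 of the 12 genes tested of the list of other inhibitors and activators, where 0 rose. Of 14 tolloid, meprin and other proteases 2 fell and 0 rose. Htra1, a secreted serine protease, went from 941 ± 36.0 (SD, n = 2) to 329 ± 49.8 (2.71-fold, limma adjusted p = 0.00256), and the carboxypeptidase Cpe fell 1.91-fold. Of 13 cathepsins and cystatins, Ctsl rose 1.78-fold, and 3 fell: Ctsf 2.17-fold, the collagen-degrading Ctsk 1.57-fold, and Lgmn, a member beyond the 3 named by rule. Of 14 shed ligands and receptors, Cd44, a hyaluronan receptor shed by ADAM10, fell 2.6-fold (limma adjusted p = 0.003) and App 1.76-fold. Of 10 sheddase regulators, Tspan15, a partner of ADAM10, fell 1.74-fold. Cd44 passed in all 18 alternatives. App passed in 11 of 18, and its log2 fold changes over the 18 ran from -0.98 to -0.07. Cpe passed in 12 of 18, Ctsk in 10 of 17 and Tspan15 in 11 of 18. None of 3 plasminogen activation genes and 6 proteoglycan substrates passed in limma in this step.

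In the knockdown step 3 of the 72 genes passed (4.17%, against 0.835% of all genes), at a median of 0.00. Htra1 rose 2.13-fold, to 738 ± 126, Dlk1, whose extracellular part is shed by ADAM17, rose 3.53-fold, and Sh3pxd2a, a scaffold of the invadopodia where MMPs are delivered, fell 1.93-fold. In this order they passed in 10, 13 and 9 of 18 alternatives, where Sh3pxd2a ran from -1.07 to -0.22. The limma adjusted p-values were 0.0387, 0.00696 and 0.037, and the count was 0 when either knockout-control array was left out and 1 when either wild-type array was left out. Against wild type 10 of 72 passed in knockdown cells (13.9%, against 10.0%). They included Vcan, the versican gene (1.61-fold higher), Cdh2, the N-cadherin gene (3.18-fold lower), and Cst3, a cystatin (1.57-fold lower). In this order their log2 fold changes over the alternatives ran from 0.64 to 0.74, -1.93 to -1.40 and -0.80 to -0.51. With the replicate number added to the fit, Vcan and Cst3 did not pass (limma adjusted p = 0.054 and 0.088). The count was 5 when either wild-type array was left out, 18 without knockdown array 1, and 17 when knockout-control array 1 and knockdown array 2 were both left out.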

How the data were processed

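Each of the 45037 probe sets has 1 intensity per array, as the authors deposited it on a linear scale. How these values were summarised, scaled or corrected for background is not stated in the labels, and no further scaling was applied. Cells with the word null (5285) or with nothing (870) counted as missing. Gene names came from the platform annotation of 2016, brought up to date through Entrez identifiers with the gene table of GRCm38.p6. Of the probe sets, 34945 had 1 symbol (34741 matched that table), 932 had several and 9160 had none here. Those with several, 5 of which name an Adam gene, were not used.

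The probe set with the highest average of log2(intensity + 32) stood for its gene, and genes under the 40th percentile of that average (7.61, an intensity of 163.6) were not tested. Fold changes on this scale understate those of dim genes. All 6 arrays entered a single limma fit of group means (limma 3.58.1 in R 4.3.3, eBayes, 3 residual and 5.45 prior degrees of freedom), with Benjamini-Hochberg adjustment over all genes of a comparison and a threshold of 0.05. The code was tested on simulated data. Precision is limited by the number of arrays, and exact permutation of 2 against 2 cannot reach below p = 0.333.

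Members and lists were chosen with earlier results of these data known. Named were members called in any comparison, all Timp genes, the 3 brightest of each other family, the largest change not called in each comparison, and up to 3 called genes of each list per comparison. Mmp14, Mmp9, Adam10, Adam12, Adam17, Adam22, Adamts6, Adamts7, the Syn genes, Eif2s3y, dim members, cell type markers and Lgmn were named after their values were seen. Alternatives covered normalization, pseudocount, filter, probe set choice, missing cells, eBayes settings, samples in the fit, a replicate block and leaving out arrays. Leaving out knockout-control array 1 and knockdown array 2 together was chosen after seeing the data.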

Additional observations from a re-analysis of the deposited data

How the results depend on the processing

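The calls of Timp3 in the first step and of Adamts1 in the knockdown step held in all 18 alternatives. Counts of calls are given in the order knockout-control against wild type, knockdown against knockout-control, and knockdown against wild type. Over all genes they were 826, 114 and 1365, over members 3, 2 and 7, and over the 72 other tested genes of the lists 11, 3 and 10. Quantile normalization gave 1653, 381 and 2301 over all genes, 8 members in the first comparison, and 6 and 17 list genes in the last 2. No filter, which adds genes to the eBayes fit and to the adjustment, gave 364, 9 and 585 genes, 1, 1 and 3 members, and 6, 0 and 6 list genes. Averaging a gene's probe sets gave 474, 13 and 778 genes, 1, 1 and 4 members, and 0 and 6 list genes in the last 2. Fitting the 2 groups only gave 1786 and 47 genes in the first and second, 8 and 4 members in the first and last, and 1 list gene in the second. In the second, the 60th percentile filter gave 199 genes and eBayes with trend and robust 325. Fits that left out arrays gave 232 to 2037, 8 to 539 and 327 to 3345 genes, 1 to 8, 1 to 2 and 2 to 12 members, and 5 to 16, 0 to 5 and 5 to 18 list genes. The causes of these differences were not tested.

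The groups share replicate numbers 1 and 2, and array 1 deviated from its group mean with correlations across 13344 genes of 0.20 (wild type and knockout-control), -0.50 (knockout-control and knockdown) and -0.15 (wild type and knockdown), so the numbers were not taken to pair the samples. With the replicate block the counts were 410, 22 and 729 genes, 2, 1 and 4 members, and 6, 1 and 7 list genes. Mmp2 then had a limma adjusted p of 0.0779 in the knockdown step and Adamts5 of 0.0955 in the first.

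Signs turned only for log2 fold changes that had not passed. In the first step Adam15 was at 0.040 under quantile normalization, Adam3 at -0.036 there, -0.028 with arrays scaled to one median and -0.054 with the block, Adamts1 at -0.0052 with arrays scaled, and Mmp24 at -0.10 and Mmp9 at 0.22 with averaged probe sets. In the knockdown step Adam17, Adamtsl4 and Timp4 were at 0.0135, 0.056 and 0.0272 under quantile normalization and at 0.047, 0.054 and 0.027 with arrays scaled, where Mmp16 was at 0.012. Averaged probe sets there gave Adam19 0.19, Adamts5 -0.060, Mmp24 0.027, Mmp9 -0.063 and Timp4 0.26. Against wild type, knockdown values of Adamtsl1 and Adamtsl2 were 0.0215 and 0.051 under quantile normalization and 0.0048 and 0.0405 with arrays scaled, and averaged probe sets gave Mmp24 -0.076 and Timp2 -0.26. Leaving out arrays, the first step ranged from -0.065 to 0.0115 for Adam15, -0.073 to 0.13 for Adam21, -0.13 to 0.13 for Adam3, -0.092 to 0.12 for Adamts1 and -0.0315 to 0.29 for Mmp2. The knockdown step ranged from -0.17 to 0.44 for Adam10, -0.19 to 0.14 for Adam17, -0.47 to 0.15 for Adam21, -0.29 to 0.70 for Adam32, -0.12 to 0.28 for Adamts10, -0.0272 to 0.074 for Adamts5, -0.0074 to 0.29 for Adamtsl1, -0.12 to 0.083 for Adamtsl4, -0.15 to 0.030 for Mmp16, -0.17 to 0.18 for Timp1 and -0.13 to 0.036 for Timp4. Against wild type, knockdown values ranged from -0.59 to 0.016 for Adam10, -0.44 to 0.18 for Adam21, -0.98 to 0.0009 for Adam32, -0.20 to 0.10 for Adamtsl1, -0.080 to 0.055 for Adamtsl2, -0.36 to 0.047 for Mmp14, -0.0072 to 0.20 for Mmp9 and -0.083 to 0.097 for Timp2. Adam10 and Adam32 passed against wild type without knockdown array 1.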
